A study of Mus musculus with 2 samples.

Results

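The genes described here are 36 members of the integrated stress response and of the unfolded protein response. They were taken by gene symbol, each by its brightest probe set, and 34 of the 36 had a probe set that carried their symbol alone, of 22184 genes named on the array. No probe set was annotated for Pycr1, which encodes an enzyme of proline synthesis. The only probe set of Pdia4, a protein disulfide isomerase of the endoplasmic reticulum, is shared in the annotation with a microRNA, so neither gene has a value. The genes fall into 4 groups by role, namely 5 stress sensors, 8 transcription factors and feedback regulators, 14 enzymes and transporters that are targets of ATF4, and 9 chaperones and degradation factors of the endoplasmic reticulum (ER).

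Cells of mammals slow translation under several kinds of stress through kinases that phosphorylate the translation initiation factor eIF2. Protein synthesis then drops in general, whereas the mRNA of the transcription factor ATF4 is translated better, and ATF4 turns on genes of amino acid supply, redox balance and, with prolonged stress, cell death. Unfolded proteins in the ER are sensed by PERK, which is one of these kinases, and by IRE1 and ATF6, which act through the transcription factor XBP1 and through ATF6 itself on chaperones and on the factors that discard misfolded proteins. Haematopoietic stem cells (HSCs) are known for a low rate of protein synthesis and for their dependence on protein quality control.

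The cells were long-term HSCs (LT-HSCs) from the bone marrow of male C57BL/6J mice with an age of 10 weeks. They were cultured for 1 day, transduced with a retrovirus, cultured for a further 3 days and sorted as GFP-positive, lineage-negative Sca-1+ c-Kit+ CD48- CD150+ cells. The control group received the mock vector, named control-GFP in the study, and the Pot1a group received a vector with full-length wild-type Pot1a, the telomere-binding shelterin protein whose gain the study examined. Each group has 1 Affymetrix array, and the number of mice behind it is not stated in the sources used. With 1 array per group there is no spread between replicates, no difference below has a replicate check, and no p-value or standard error is given. The number of arrays limits the precision.

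As a check of the labels, Pot1a was 7.87-fold higher after its transduction (log2 intensities of 8.08 and 11.06). Over all 34365 probe sets the median log2 intensity was 5.73 for the control-GFP array and 5.72 for the Pot1a array. Of 12 markers of LT-HSCs, 10 had a probe set of their own, all 10 were above the filter described next, and their median difference was 0.000. Kit was at 11.54 and 11.66, and Procr was lower by 0.33 on the log2 scale in Pot1a cells while Cd34 was higher by 0.32. Markers of T and NK cells were all below the filter (0 of 6 above it), and so were 8 of 10 markers of neutrophils and monocytes, whereas all 5 megakaryocyte markers with a probe set were above it (median difference -0.013). Of the markers of B and plasma cells 4 of 7 were above it (median difference -0.028), of those of endothelial and stromal cells 4 of 7 (median difference 0.061, Emcn higher by 0.36), and of those of erythroid cells 1 of 3. Of 5 markers of mast cells and basophils, only Gata2, which HSCs also express, was above it, higher by 0.32. The part of other cells in the differences below was not tested.

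Every difference below is Pot1a minus control-GFP on the log2 scale, so a positive value is a higher level in Pot1a-transduced cells. Genes were set against the 11092 genes whose mean over both arrays was at or above the median of all genes (a log2 intensity of 6.04), and 32 of the 34 genes passed. Chac1 and Cth did not pass, and their low values are given as measured. A difference of at least 0.3 (1.23-fold) was used to count genes.

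The stress response genes as a whole lay on both sides of 0 with small differences. Of the 32 genes, 19 were higher and 13 lower in Pot1a cells, with a median of 0.039, beside 5561 higher and 5411 lower of the 11092 genes and a median of 0.001. Only Dnajb9 was higher by at least 0.3 and only Nupr1 lower by at least 0.3. Over all genes kept, 4.89% were higher and 5.98% lower by that amount. The 2 genes are 6.25% of the 32, against 10.9% of the genes kept in either direction. In bulk RNA of sorted cells, fewer cells that express a gene and less RNA per cell cannot be told apart. At a threshold of 0.2, 9 of the 32 genes (28.1%) passed, against 27.2% of the genes kept, so the stress response genes were near the background share. Of the 32 genes, 12 differed by less than 0.1 in either direction.

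The size of a difference depended on the level. Among the dimmest 2773 of the genes kept, 15.7% differed by at least 0.3, and among the brightest 2773 genes 7.46%. The median difference also varied with level, from -0.021 in the dimmest set to 0.030 in the brightest. Of the stress response genes, 16 were in the brightest set, where none of them differed by 0.3 or more, and 5 in the dimmest, where Nupr1 did. The median absolute difference was 0.12 for the stress response genes and 0.12 for all genes kept, and the SD over genes was 0.16 and 0.19, respectively. The plot of difference against level places the stress response genes within the cloud of the other genes.

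**Figure D1:**
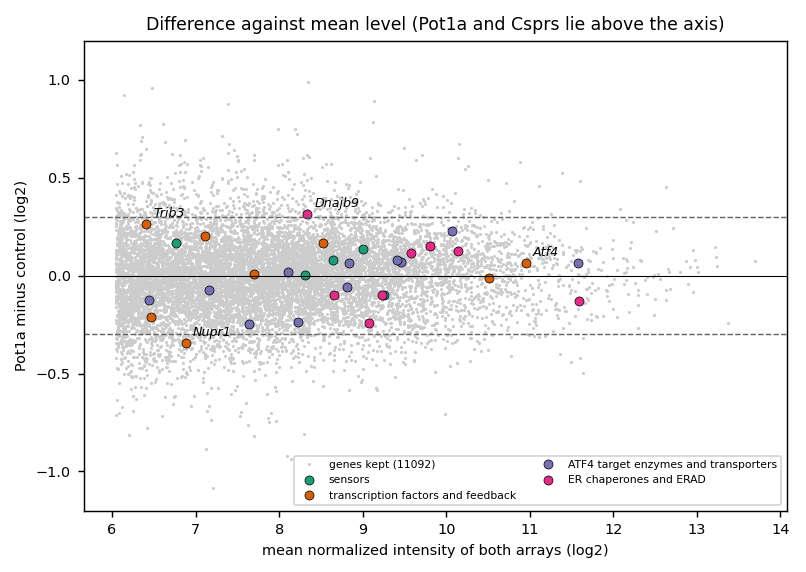
Difference (Pot1a minus control-GFP, log2) against the mean normalized intensity of both arrays (log2) for the 11092 genes kept (grey) and the 32 stress response genes that passed the filter (coloured by role). Dashed lines mark differences of 0.3 in either direction, Dnajb9 lies just above the upper line and Nupr1 below the lower one, and Pot1a and Csprs lie beyond the axis.

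The sensors differed little. Of 5 sensor genes, 4 were higher and 1 lower, with a median of 0.078 and none past 0.3. Eif2ak3, which encodes PERK, the eIF2 kinase of the ER membrane, had a log2 intensity of 6.68 in control-GFP and 6.85 in Pot1a cells, a difference of 0.17. Ern1, which encodes IRE1α, the kinase and endonuclease that splices the mRNA of Xbp1, was at 8.93 and 9.07, a difference of 0.13. Atf6, whose product is cut in the Golgi apparatus to release a transcription factor, was the sensor with the lower level, at 9.30 and 9.20 (-0.10). The genes of the 3 ER sensors thus lay on both sides of 0.
The remaining sensors are eIF2 kinases that respond to other stresses. Eif2ak1 encodes HRI, which responds to haem shortage and mitochondrial stress, and was at 8.60 and 8.68 (0.08). Eif2ak4 encodes GCN2, which responds to uncharged tRNA, and was at 8.30 and 8.31 (0.01), the smallest difference among the sensors.

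**Figure D2:**
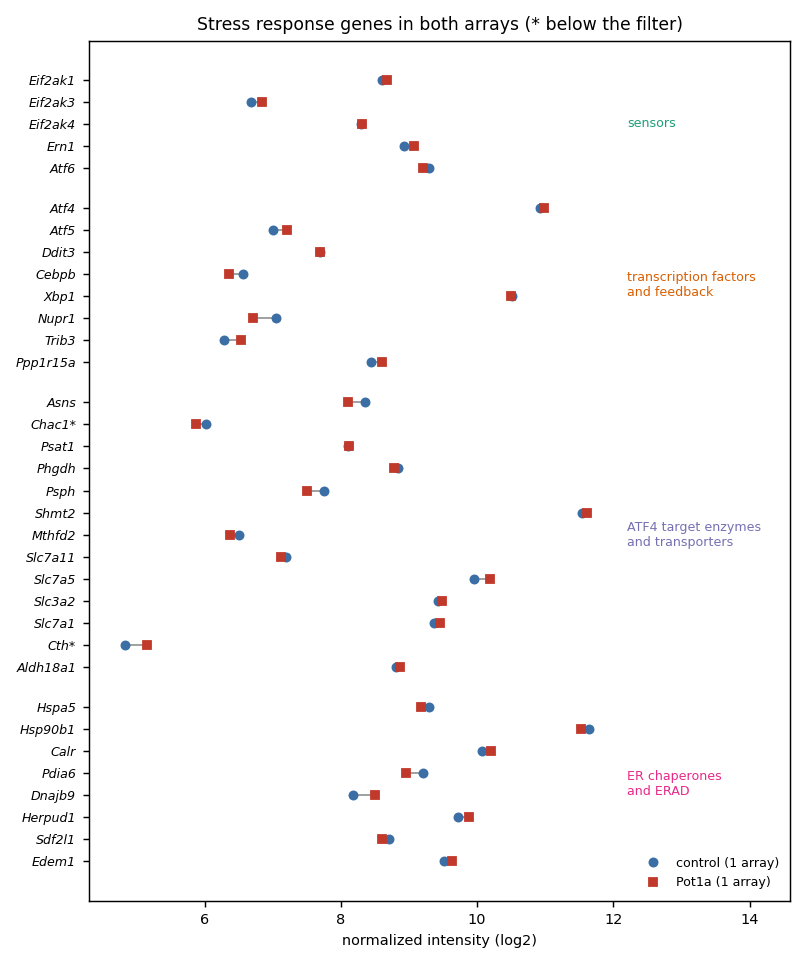
Normalized intensity (log2) of each of the 34 genes in the control-GFP array (blue circles) and the Pot1a array (red squares), grouped by role, with 1 array per group and no error bars. The 2 symbols overlap for most genes, as for Atf4 at 10.92 and 10.98, and are furthest apart for Nupr1 at 7.05 and 6.71, and an asterisk marks Chac1 and Cth, which were below the filter.

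The transcription factors and feedback regulators lay on both sides of 0. This group had 5 genes higher and 3 lower, with a median of 0.035 and Nupr1 alone past 0.3. Atf4 and Xbp1 were in the brightest set of genes, and Trib3, Nupr1 and Cebpb in the dimmest, where larger differences were more frequent. Atf4 had log2 intensities of 10.92 and 10.98 (0.06). Xbp1 was at 10.52 and 10.50 (-0.01), a value that stands for spliced and unspliced Xbp1 mRNA together. Ddit3, which encodes the pro-apoptotic factor CHOP, was at 7.69 and 7.70 (0.01). The mRNAs of these 3 factors thus differed by 0.06 or less in either direction. ATF4 is controlled mainly at translation and XBP1 by splicing, which these values do not measure.
Trib3 and Nupr1, both induced by ATF4 in stressed cells, lay at opposite ends of the group. Trib3 encodes a pseudokinase that inhibits AKT and ATF4 and was at 6.28 in control-GFP and 6.54 in Pot1a cells, a difference of 0.26. Nupr1 encodes a small stress-induced chromatin protein and was at 7.05 and 6.71, a difference of -0.35 (1.27-fold lower). This was the largest difference of the 32 genes, and it stood beside 663 genes of the 11092 that were lower by 0.3 or more.
Atf5, a factor related to ATF4 that acts in the mitochondrial stress response, was at 7.01 and 7.21 (0.20). Ppp1r15a, which encodes GADD34, the phosphatase subunit that restores translation by dephosphorylating eIF2, was at 8.44 and 8.61 (0.17). Cebpb, a partner of ATF4 and CHOP and a factor of myeloid cells, was at 6.57 and 6.36 (-0.21). Atf5, Trib3 and Ppp1r15a were higher and Cebpb and Nupr1 lower, so the genes downstream of ATF4 in this group did not share a direction.

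**Figure D3:**
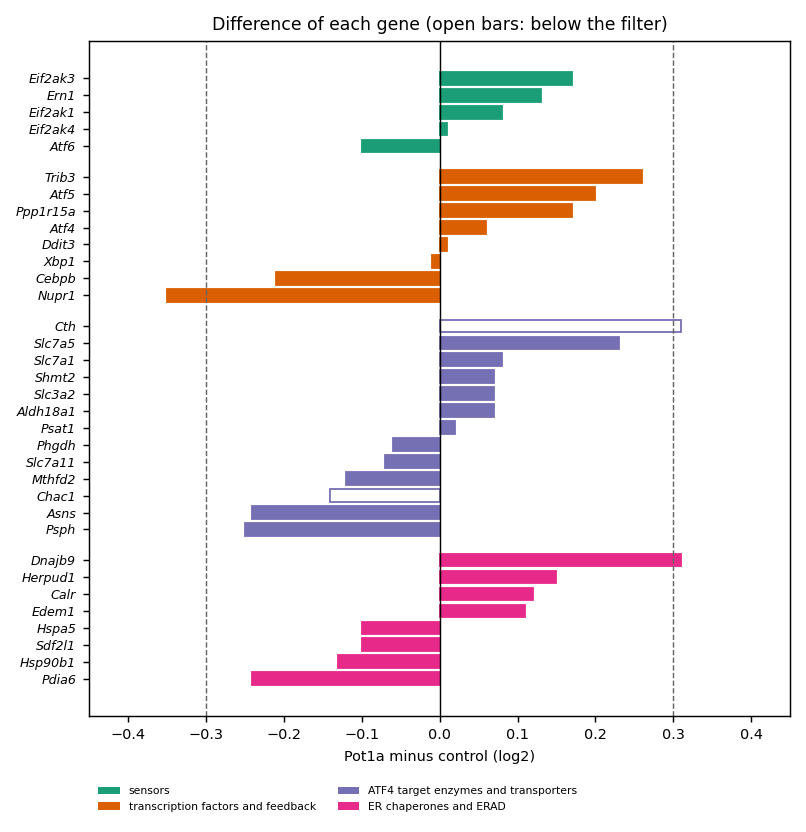
Difference (Pot1a minus control-GFP, log2) of the 34 genes by role, ordered within each role, with bars from 0 and dashed lines at 0.3 in either direction. Each role except the sensors, where only Atf6 was lower, had several genes on either side of 0, and open bars mark Chac1 (-0.14) and Cth (0.31), which were below the filter.

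The enzymes and transporters that ATF4 controls were also divided. Of 11 that passed the filter, 6 were higher and 5 lower, with a median of 0.016 and none past 0.3. With Atf5, Ddit3, Trib3, Nupr1, Cebpb and Ppp1r15a counted among the ATF4 targets, 10 of 17 were higher and the median was again 0.016.
Of the transporters of amino acids, Slc7a11 was lower and the others higher, and none passed 0.3. Slc7a5, which encodes the leucine transporter LAT1, was at 9.96 and 10.19 (0.23), and Slc3a2, which encodes the heavy chain that carries it to the membrane, was at 9.43 and 9.49 (0.07). Slc7a1, which encodes a transporter of arginine and lysine, was at 9.37 and 9.45 (0.08). Slc7a11, the light chain of the cystine transporter, which also pairs with the product of Slc3a2, was at 7.20 and 7.13 (-0.07). A second, dim probe set of Slc7a11 was at 4.11 and 4.55 (0.43), so the sign for this gene depends on the probe set.
The enzymes of serine synthesis lay on both sides of 0, and none passed 0.3. Phgdh, the first enzyme of the pathway from glycolysis to serine, was at 8.84 and 8.78 (-0.06), and Psat1, the next, was at 8.10 and 8.12 (0.02). Psph, the phosphatase of the last step, was at 7.76 and 7.51 (-0.25), the largest difference of the enzymes that passed. These enzymes act in sequence and their mRNAs differed by unequal amounts.
The mitochondrial folate enzymes use serine as a source of single-carbon units. Shmt2 was at 11.54 and 11.61 (0.07), whereas Mthfd2 was at 6.50 and 6.38 (-0.12). Asns, asparagine synthetase and a classic reporter gene of ATF4 activity, was at 8.35 and 8.11 (-0.24). Asns and Psph were the lowest of the ATF4 target enzymes, and Slc7a5 was the highest of the genes in the group that passed.
Aldh18a1, which makes the precursor of proline, was at 8.81 and 8.87 (0.07). Chac1, which degrades glutathione, was at 6.02 and 5.88 (-0.14), and Cth, which makes cysteine from cystathionine, was at 4.84 and 5.15 (0.31). Cth passes 0.3 only among dim genes, where differences of this size were more frequent. Without the filter, 8.20% of all 22184 genes were higher by at least 0.3.

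Promoter sequences are shown for the ATF4 targets because these genes are grouped by a shared regulator, so that the differences of genes that carry its motif can be set side by side. A CARE motif, bound by heterodimers of C/EBP and ATF factors such as ATF4, was searched as TGATG and AA separated by 1 base, on both strands, from 250 bases before to 50 bases after the annotated start of transcription. Promoters were those of a table from RefSeq, assembly GRCm38.p6, in which 33 of the 36 genes were matched, and the promoters of Atf6, Slc7a5 and Cth were not searched. A match was found for 7 of the 33 genes (21.2%), beside 4.51% of all 27025 genes in the table. The genes were chosen as members of these responses, so the shares describe them and are no test. The stretches below lie before the start on the strand of the gene, with the match in capitals and written TTGCATCA where it reads on the opposite strand.
Slc7a11, chr3:50443638-50443694, minus strand: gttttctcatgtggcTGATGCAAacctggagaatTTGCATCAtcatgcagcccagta
Nupr1, chr7:126625558-126625595, minus strand: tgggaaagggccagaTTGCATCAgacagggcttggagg
Chac1, chr2:119351034-119351071, plus strand: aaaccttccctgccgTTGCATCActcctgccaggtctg
Herpud1, chr8:94386302-94386339, plus strand: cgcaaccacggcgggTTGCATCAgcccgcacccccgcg
Asns, chr6:7693210-7693247, minus strand: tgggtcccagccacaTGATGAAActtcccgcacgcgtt
Slc7a11 carries a pair of matches in opposite orientation. The matches of Nupr1, Chac1 and Herpud1 have the same letters in capitals. The remaining matches were in Pycr1, which has no value, and in Trib3, whose match begins 15 bases after the start and is not shown.
Of the 6 genes with a match and a value, Trib3 (0.26) and Herpud1 (0.15) were higher and Slc7a11 (-0.07), Chac1 (-0.14), Asns (-0.24) and Nupr1 (-0.35) lower. Their median was -0.108. Over all 248 genes kept with a CARE match the median was -0.008, with 116 higher and 128 lower, beside 0.002 for the 8558 genes kept whose promoter had no match. Genes with the same letters in the promoter, such as Nupr1 and Herpud1, therefore differed in opposite directions. A match is a string of letters and does not show that a factor was bound.

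The chaperones and degradation factors of the ER were evenly divided. Of 8 genes with a value, 4 were higher and 4 lower, with a median of 0.006. Dnajb9 encodes ERdj4, a co-chaperone that binds misfolded proteins for disposal and restrains IRE1, and it is a known target of XBP1. It had a log2 intensity of 8.18 in control-GFP and 8.50 in Pot1a cells, a difference of 0.31 (1.24-fold higher). This was the only gene of the 32 above 0.3, beside 542 of the 11092 genes.
The genes of folding chaperones lay on both sides of 0, and none passed 0.3. Hspa5, which encodes BiP, the ER chaperone that holds the stress sensors inactive, was at 9.29 and 9.18 (-0.10). Hsp90b1, which encodes GRP94, was at 11.65 and 11.53 (-0.13). Pdia6, a protein disulfide isomerase, was at 9.20 and 8.96 (-0.24). Sdf2l1, whose product forms a complex with an ER co-chaperone, was at 8.71 and 8.61 (-0.10). Calr, the calcium-binding lectin chaperone calreticulin, differed from these and was higher, at 10.08 and 10.21 (0.12).
Herpud1 and Edem1 belong to ER-associated degradation (ERAD), the route by which misfolded proteins are moved out of the ER to the proteasome, and neither passed 0.3. Herpud1, a membrane scaffold of the ERAD complex, was at 9.72 and 9.88 (0.15). Edem1, a lectin that marks misfolded glycoproteins, was at 9.52 and 9.63 (0.11), and its second, dim probe set was at 4.66 and 4.92 (0.25).
The median of 0.006 is the midpoint between a higher and a lower set of equal size. Without Dnajb9 the median of the other 7 genes was -0.101, as it would be without any other of the higher genes. With a lower gene left out instead, the middle value would be that of Edem1 (0.113).

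The promoters of the chaperone genes were searched for the ER stress response element (ERSE), bound by NF-Y and ATF6, as CCAAT and CCACG separated by 9 bases, on both strands. A match was found for 4 of the 33 genes (12.1%), beside 0.137% of all 27025 genes, and all 4 encode folding chaperones. As with CARE, the genes were chosen as members of these responses, so the shares are no test. A second element, UPRE, bound by XBP1 and ATF6 and searched as TGACGTGG, was found for 0 of the 33 genes and 0.714% of all genes. The stretches with ERSE are shown because they mark the classic target genes of the ER branch, with the match in capitals.
Hspa5, chr2:34772010-34772058, plus strand: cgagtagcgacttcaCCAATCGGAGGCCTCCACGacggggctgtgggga
Pdia6, chr12:17266476-17266524, plus strand: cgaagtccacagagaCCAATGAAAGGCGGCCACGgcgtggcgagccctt
Calr, chr8:84847060-84847108, minus strand: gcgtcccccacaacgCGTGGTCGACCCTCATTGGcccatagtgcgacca
Hsp90b1, chr10:86705518-86705671, minus strand: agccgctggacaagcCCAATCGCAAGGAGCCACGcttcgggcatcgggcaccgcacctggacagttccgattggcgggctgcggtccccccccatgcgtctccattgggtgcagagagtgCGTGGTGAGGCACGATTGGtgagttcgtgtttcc
Hspa5 and Pdia6 read the motif on the strand of the gene and Calr on the opposite strand, and Hsp90b1 has a match in each orientation. Of these 4 genes, Calr was higher (0.12) and Hspa5 (-0.10), Hsp90b1 (-0.13) and Pdia6 (-0.24) were lower, with a median of -0.115. Over all 15 genes kept with an ERSE match, 7 were higher and 8 lower, with a median of -0.009.

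**Figure D4:**
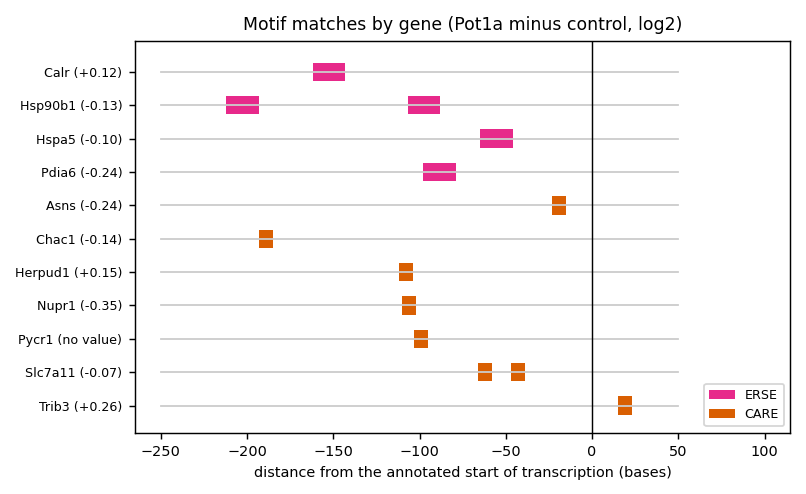
Position of each ERSE (pink) and CARE (orange) match, in bases from the annotated start of transcription, for the genes with a match, and beside each symbol its difference (Pot1a minus control-GFP, log2). The grey line spans the window searched, and genes on either side of 0 occur with both motifs.

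Other genes of these pathways, taken from lists chosen with earlier results of these data known, had medians between 0.000 and 0.052. Of 16 further targets of ATF4 and CHOP, 11 were higher, with a median of 0.052, and 2 were higher by 0.3 or more, against 4.89% of the genes kept. These were Sesn2, which encodes an inhibitor of mTORC1 signalling, at 8.57 and 9.03 (0.47), and Bbc3, which encodes the pro-apoptotic protein PUMA, at 6.06 and 6.46 (0.40), among the dimmest 2773 genes kept, of which 15.7% passed 0.3 in either direction. Both are also known targets of p53.
The cytosolic aminoacyl-tRNA synthetases, which charge tRNAs and many of which ATF4 controls, were balanced. Of 18 genes, 9 were higher and 9 lower, the median was 0.000 and the SD over genes 0.09, beside 0.19 for all genes kept.
Of 11 genes of eIF2, its exchange factor eIF2B and their regulators, 6 were higher and 5 lower, with a median of 0.032 and a mean of -0.058. Dnajc3, which encodes a co-chaperone of BiP that also inhibits PERK, was at 8.77 and 8.43 (-0.34). Eif2b5, which encodes the catalytic subunit of eIF2B, was at 8.18 and 7.88 (-0.29), and Eif2s2, the β-subunit of eIF2, was at 7.59 and 7.30 (-0.29). The median and the mean of this list differ in sign because the lower genes were further from 0.
Among 18 further ER chaperones and folding enzymes, 11 were higher and 7 lower, with a median of 0.040 and a mean of -0.017. The 3 genes furthest from 0 were lower, namely Cnpy2 at 11.20 and 10.89 (-0.31), Fkbp2 at 9.97 and 9.67 (-0.29) and Manf, an ER-resident survival factor, at 6.73 and 6.44 (-0.28).
Of 21 genes of ERAD and the translocon, 14 were higher and 7 lower, with a median of 0.025. Ube2j1, a ubiquitin-conjugating enzyme of ERAD, was at 8.82 and 9.18 (0.36). Sec61b, a subunit of the channel through which proteins enter the ER, was at 6.24 and 6.60 (0.36). Edem3, a relative of Edem1, was at 8.34 and 8.64 (0.30). These 3 were past 0.3 and none of the list was lower by that amount, against 4.89% and 5.98% of all genes kept. Sec61b was among the dimmest 2773 genes kept, of which 15.7% passed 0.3 in either direction.
Heat shock proteins of the cytosol, which belong to a separate response and were taken for comparison, were higher in 7 of 8 genes by at most 0.18, with a median of 0.071.

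**Figure D5:**
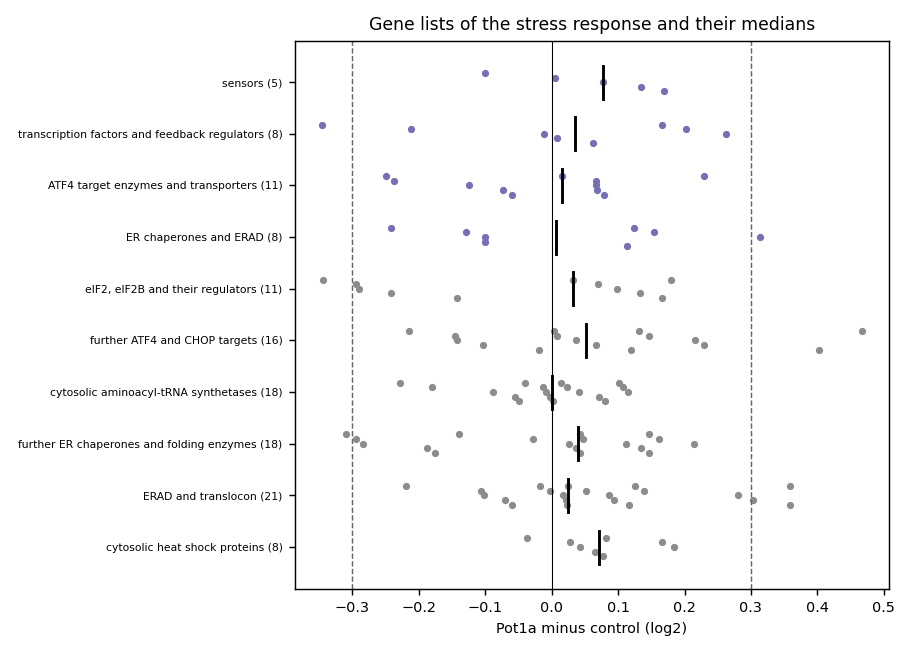
Difference (Pot1a minus control-GFP, log2) of each gene that passed the filter in the 4 groups of stress response genes (purple) and in the other lists of these pathways (grey), with the number of genes in parentheses and the median as a black bar. All medians lie between 0 and 0.1, and the points past the dashed lines at 0.3 are single genes such as Sesn2 (0.47), Dnajb9 (0.31) and Nupr1 (-0.35).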

How the data were processed

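Each group was hybridized to 1 Affymetrix gene array. The values of the 34365 probe sets are intensities on a linear scale, deposited in normalized form, whose log2 has 5 decimals in 100% of the values. The methods name Expression Console, RMA and quantile normalization for arrays of aged cells, and no steps are stated for the 2 arrays used here. Centring is unknown, and no detection calls were used, so values near background were not marked. Quantile normalization, if used, removes any shift shared by all genes.

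Log2 was taken and differences were computed before rounding. Gene names came from the platform annotation (23525 probe sets with 1 symbol, 1816 with several and 9024 with none). Of those with 1 symbol, 23329 were matched by Entrez ID to RefSeq genes of GRCm38.p6, whose symbols were then used. Of 22184 genes, 1082 had several probe sets, and the one with the highest mean was used. The filter used the mean of both arrays, so that it does not favour either group. No test was possible. The genes, lists and motifs were chosen with earlier results of these data known. All 36 genes were named, with up to 3 genes furthest from 0 in each other list that was described. Kit and the markers past 0.3 were added.

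Alternatives were averaged probe sets, no filter, a filter on at least 1 array or at the 75th percentile, loess correction (fraction 0.3), median centring, thresholds of 0.2 and 0.5, means, a wider list of ATF4 targets, and leaving out the gene furthest from 0. Steps were run on simulated data with small noise and planted differences far above 0.3. This checks the computation and does not show how reliable a difference near 0.3 is in these arrays. Computations ran in Python 3.11.15 with pandas 2.3.3 and numpy 2.4.6, loess was from statsmodels 0.14.6, and plots were drawn with matplotlib 3.10.9.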

Additional observations from a re-analysis of the deposited data

How the results depend on the processing

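No paired analysis was possible because each group has 1 array, so no array could be left out either. A value is described as moved where it shifted by more than 0.05 on the log2 scale or a count by more than 1.5 times. Of 102 differences of single stress response genes under an alternative, 2 moved, both with probe sets averaged: Slc7a11 was then at 0.179 and Edem1 at 0.183, and Slc7a11 turned its sign. Of 82 medians, 6 moved and 8 turned their sign. The median of the ATF4 target enzymes and transporters was 0.067 under the filter at the 75th percentile, as that of the eIF2 list was 0.101. The median of the ER chaperones, midway between 4 higher and 4 lower genes, was -0.101 without Dnajb9. The median of the ERAD and translocon list was 0.086 with probe sets averaged. Means in place of medians were -0.058 for the eIF2 list and -0.017 for the further ER chaperones.

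The count of stress response genes higher by the threshold was 2 without a filter, 4 at a threshold of 0.2 and 0 at 0.5. The count of those lower was 0 with the filter at the 75th percentile, 5 at 0.2 and 0 at 0.5. Over all genes, 1818 were higher and 2428 lower without a filter, 218 and 228 above the 75th percentile, 1403 and 1618 at a threshold of 0.2, and 85 and 83 at 0.5. Loess correction and centring moved none of the medians by more than 0.05, but some medians near 0 turned their sign. With loess correction the median of the ER chaperones was -0.010 and that of the aminoacyl-tRNA synthetases -0.015. With centring that of the synthetases was -0.001. Cth and Chac1 were below the filter, and without detection calls their distance from background is not known.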
